A study of Mus musculus with 2 samples.

Results

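The cells described here are dental epithelial cells of the E12.0 mouse mandible in which no transcript of *Isl1* or *Tlx1* was captured, a pair of transcription factor genes that mark the medial mandible. They were chosen from measured counts of unique molecular identifiers (UMIs, each standing for 1 captured transcript): at least 1 UMI of *Irx1*, at least 1 UMI of *Fst* and *Enc1* together, at most 1 UMI of *Shh* and 0 UMIs of *Isl1* and *Tlx1*. Of the 11355 cells kept at E12.0, 421 met this rule, which is 3.71% (exact binomial 95% interval 3.37 to 4.07%), among 24099 kept cells over both stages. The E12.0 library held mandibular arch epithelium of pooled K14Cre;R26mT/mG embryos, in which Cre driven by the Keratin 14 promoter turns on membrane GFP in epithelial cells, and GFP-positive cells were sorted. The E9.5 library held unsorted cells of whole mandibular arches, epithelium and mesenchyme, of pooled embryos of the same genotype. Each library came from a single litter, and no embryo was treated. There was 1 library per stage, so no difference below has a replicate check, no test was run, and every interval covers counting error only.

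Teeth of the mouse mandible start as a thickening of the oral epithelium, the dental lamina, from which an incisor forms near the midline and molars form farther back, with a toothless diastema between them. *Irx1* marks the dental epithelium, and *Shh* marks the initiation knot, a signaling center inside the placode. Epithelial FGF8 is a classic signal of the proximal, molar-forming mandible, while BMP4 and *Isl1* belong to the distal, incisor-forming side.

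The 421 cells summed to 3137801 UMIs, with a median of 6938 UMIs and 2912 genes per cell. They are set beside 4 other sets of the same library. The Irx1-negative cells, which had 0 UMIs of *Irx1* and of *Shh*, numbered 9435 with a median of 6187 UMIs. The Isl1/Tlx1-positive dental cells, which met the same rule except for at least 1 UMI of *Isl1* or *Tlx1*, numbered 503 and were deeper, with a median of 8559 UMIs. The *Irx1*-positive cells without *Fst* or *Enc1* and without *Isl1* or *Tlx1* numbered 364, with a median of 6344 UMIs. The *Shh*-high dental cells, with at least 2 UMIs of *Shh*, numbered 61, with a median of 8550 UMIs. The libraries shared 51 cell barcodes, of which 2 belonged to the 421 cells. Scrublet called 22 of the 421 cells (5.23%) doublets, against 14.7% of the Isl1/Tlx1-positive dental cells and 5.03% of the Irx1-negative cells.

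Expression is given as CPM, the UMIs of a gene summed over a set per 1000000 UMIs of that set. The genes of the rule are a description of the choice and nothing more. *Irx1* (chr13:71957921-71963723, GRCm38, minus strand), a homeobox gene, stood at 255 CPM in the Isl1/Tlx1-negative dental cells and 215 CPM in the positive ones. *Fst*, which encodes the activin antagonist follistatin, stood at 221 CPM in both dental sets and at 39.1 CPM in the Irx1-negative cells. *Enc1*, an actin-binding protein gene, stood at 127, 118 and 17.1 CPM in the same order. *Shh* was at 7.65 CPM in the negative and 7.58 CPM in the positive dental cells, against 530 CPM in the *Shh*-high cells.

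Many members sat at the edge of the rule. Of the 421 cells, 222 had 1 UMI of *Irx1*, 170 had 1 UMI of *Fst* and *Enc1* together, and 24 had 1 UMI of *Shh*. Just outside the rule, 9 cells had 2 UMIs of *Shh*, and 194 cells had 1 UMI of *Isl1* or *Tlx1*. The cells just outside by *Isl1* or *Tlx1* had 28.9 CPM of *Fgf8* and 33.7 CPM of *Ddit4l*, while those with 3 or more such UMIs had 14.7 and 27.3 CPM. *Fgf8* stood at 83.9 CPM in members with 1 UMI of *Irx1* and at 81.2 CPM in those with 2 or more. By *Fst* and *Enc1*, members with 1 UMI had 109.5 CPM of *Fgf8* and 7.195 CPM of *Ednrb*, while those with 2 or more had 64.7 and 14.3 CPM.

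Whether a UMI of *Isl1* or *Tlx1* was captured depended on how deeply a cell was sequenced, so 0 UMIs does not show that a cell lacks these transcripts. Among the 924 dental cells split into 4 equal parts by depth, the negative share was 69.3% (exact binomial 95% interval 62.9 to 75.1%) in the shallowest part, 46.3% and 42.4% in the middle parts, and 24.2% (18.9 to 30.3%) in the deepest. Over all dental cells it was 45.6% (42.3 to 48.8%). With every cell thinned to 4100 UMIs and the rule applied again, it was 61.9% (57.5 to 66.2%), or 314 of 507 cells.

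**Figure D1:**
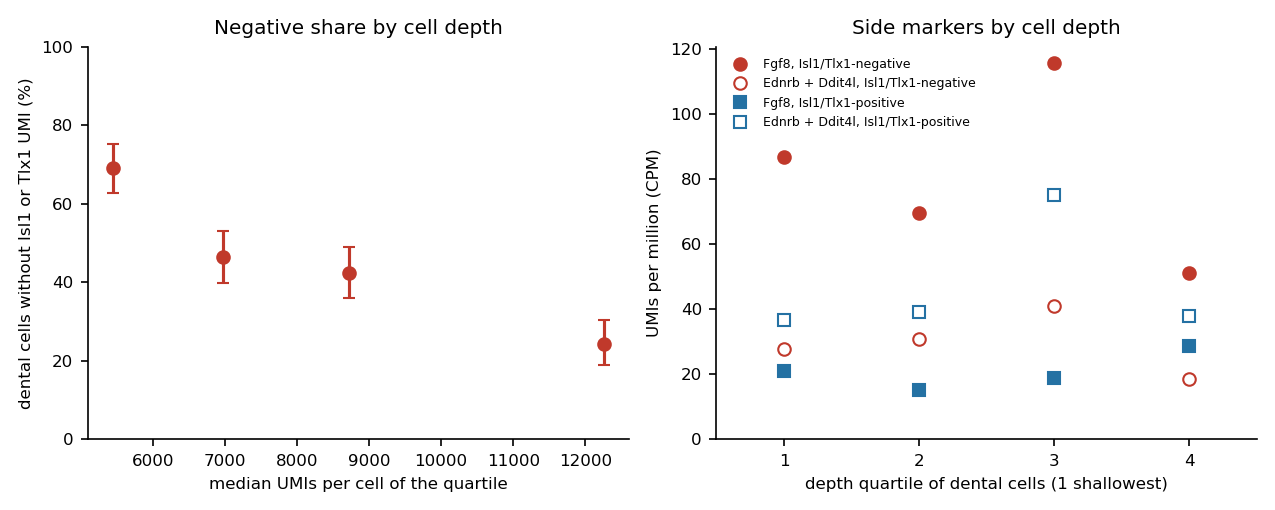
Left, percentage of dental cells without a UMI of *Isl1* or *Tlx1* against the median UMIs per cell of each depth quartile, with exact binomial 95% intervals: 69.3% in the shallowest quartile and 24.2% in the deepest. Right, CPM of *Fgf8* (filled) and of *Ednrb* plus *Ddit4l* (open) by depth quartile in the negative (circles) and positive (squares) dental cells; *Fgf8* is higher in the negative cells in all 4 quartiles.

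The label of these cells as the molar side was checked against *Fgf8*, a marker of the lateral, molar-forming mandible. *Fgf8* (chr19:45736798-45742915, GRCm38, minus strand) stood at 82.5 CPM (exact Poisson 95% interval 72.8 to 93.2) in the negative dental cells. It stood at 23.2 CPM (19.0 to 27.9) in the positive ones and at 18.6 CPM in the Irx1-negative cells. The log2 ratio of negative to positive dental cells was 1.83 (1.51 to 2.17), and *Fgf8* was higher in the negative cells in each depth quartile, from 51.2 against 28.8 CPM in the deepest to 116 against 18.8 CPM in the next deepest. *Ednrb*, the endothelin receptor B gene, is among the genes that the study ties to incisor and molar cells alike, and *Ddit4l* encodes an inhibitor of mTOR signaling. *Ednrb* stood at 11.5 CPM (8.04 to 15.9) in the negative and 18.1 CPM (14.5 to 22.4) in the positive dental cells, a log2 ratio of -0.66 (-1.26 to -0.08). For *Ddit4l* the levels were 18.5 CPM (14.0 to 23.9) in the negative and 29.0 CPM (24.4 to 34.3) in the positive cells, and the log2 ratio was -0.65 (-1.12 to -0.20). In the Irx1-negative cells *Ednrb* was at 1.44 CPM and *Ddit4l* at 2.63 CPM. Without cells holding 3 or more UMIs of periderm and suprabasal genes, the log2 ratio of *Ednrb* was 0.063 (-0.78 to 0.89). Since the negative share fell with depth, the set is called by its rule here, Isl1/Tlx1-negative dental cells, and not molar cells.

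*Lgr5*, an R-spondin receptor gene listed among the marker genes of the set, was at 25.2 CPM in the negative and 38.9 CPM in the positive dental cells, against 4.85 CPM in the Irx1-negative cells. The diastema markers *Timp3*, a metalloproteinase inhibitor gene, and *Prss23*, a serine protease gene, were at 104 and 102 CPM in the negative cells, at 67.1 and 72.6 CPM in the positive ones and at 107 and 94.8 CPM in the Irx1-negative cells. *Bmp4* was at 3.19 CPM in the negative and 5.26 CPM in the positive dental cells, both below the 9.25 CPM of the Irx1-negative cells.

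**Figure D2:**
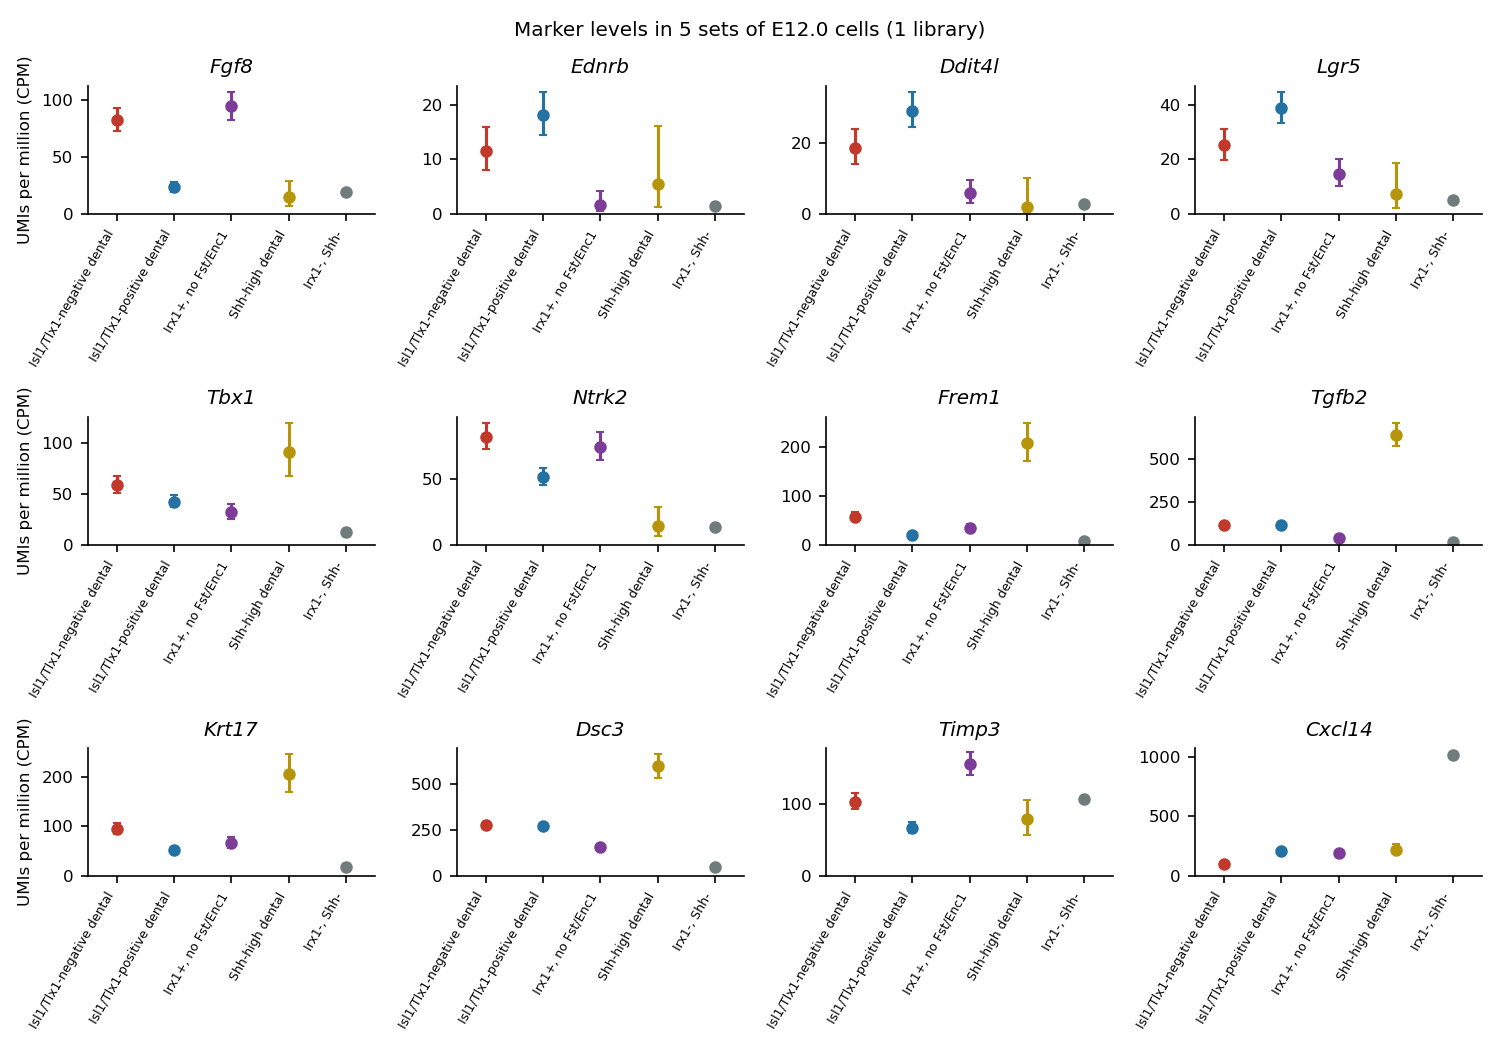
CPM (linear axis from 0) of 12 genes in 5 sets of E12.0 cells, with exact Poisson 95% intervals. *Fgf8* is high in both *Irx1*-positive sets with 0 UMIs of *Isl1* and *Tlx1* (82.5 and 94.3 CPM) and low in the positive dental cells (23.2 CPM), while *Frem1*, *Tgfb2*, *Krt17* and *Dsc3* are highest in the *Shh*-high cells.

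Shares of cells with a UMI were compared after thinning to 4100 UMIs, which 409 of the negative, 499 of the positive and 8475 of the Irx1-negative cells could supply. *Fgf8* was seen in 25.7% of the negative and 9.02% of the positive dental cells, against 36.8% and 15.1% without thinning. In 3998 thinned *Cxcl14*-rich cells without *Irx1*, an aboral set that should lack dental transcripts (median depth before thinning 6540 UMIs), the share with *Fgf8* was 1.83%. *Ednrb* was seen in 3.18% of the thinned negative cells, 6.41% of the positive ones and 0.575% of the *Cxcl14*-rich cells.

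Against the Irx1-negative cells, the Isl1/Tlx1-negative dental cells showed higher levels of dental genes and lower levels of aboral genes. A gene was counted as higher or lower when its CPM differed at least 1.3-fold and a UMI was present in at least 15% of cells of the higher side. Of 6515 genes that could be counted, 457 were higher (7.01%) and 471 lower (7.23%). The median log2 ratio over these genes, with 5 CPM added, was 0.01. Every cell was also thinned to 4100 UMIs and the rule applied again, which changed the cells in each set as well. Then 232 of the 457 and 239 of the 471 were again past these limits, among 4809 genes that could be counted. Since the rule was built on this contrast, these counts describe the set and support nothing further.

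The genes described next had the largest ratios among those seen in at least 25% of the cells. *Frem1*, a basement membrane protein gene, stood at 57.7 CPM against 6.74 CPM, a log2 ratio of 3.097 (2.84 to 3.35). *Gpm6b*, a membrane proteolipid gene, stood at 46.5 against 5.52 CPM. *Tgfb2*, a TGF-beta ligand gene, stood at 115 against 14.9 CPM, a log2 ratio of 2.95 (2.77 to 3.13). The Iroquois gene *Irx2*, a neighbor of *Irx1* in its cluster, stood at 91.1 against 13.7 CPM, and *Tbx1*, a T-box gene needed in tooth development, at 59.0 against 12.7 CPM. *Ntrk2*, the receptor of the neurotrophin BDNF, stood at 82.9 against 13.5 CPM. *Dsc3*, which encodes a desmosomal cadherin, stood at 274 against 48.2 CPM, and the keratin gene *Krt17* at 94.97 against 16.9 CPM. *Zfp536*, *Slitrk6*, *Zfp385c*, *Flrt3*, *Fgf8*, *Ifitm1* and *Cpe* completed these 15 genes, with log2 ratios from 2.74 for *Zfp536* down to 1.70 for *Cpe*.

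The 10 genes with the lowest ratios were led by the chemokine gene *Cxcl14*, at 93.4 CPM against 1019 CPM (log2 ratio -3.45, -3.62 to -3.28). The mechanosensitive channel gene *Piezo2* stood at 6.69 against 72.7 CPM. *Tfap2b*, an AP-2 factor of the aboral epithelium, stood at 53.5 against 498 CPM, and the basal keratin gene *Krt15* at 47.5 against 355 CPM. *Robo2*, *Wnt9b*, *Barx2*, *Otx1*, *Lmo1* and *Mt2* were the others, with log2 ratios from -3.06 for *Robo2* to -2.47 for *Mt2*.

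**Figure D3:**
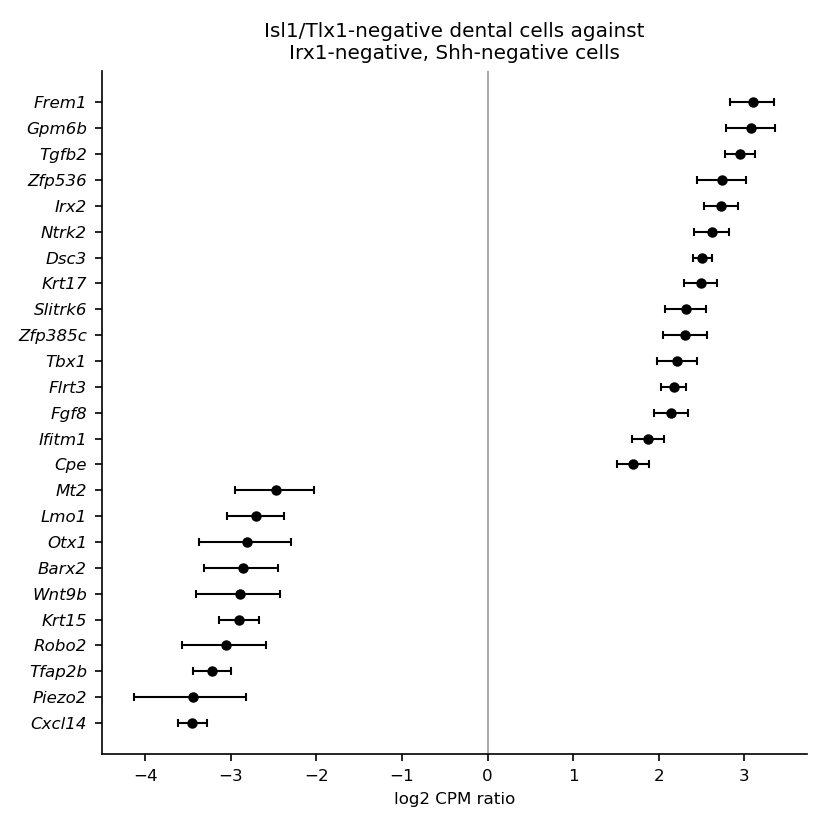
Log2 CPM ratio of Isl1/Tlx1-negative dental cells to Irx1-negative, *Shh*-negative cells for the 15 genes with the highest and 10 with the lowest ratios, with exact 95% intervals for counting error. Ratios run from 3.097 for *Frem1* to -3.45 for *Cxcl14*.

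Embryos of both sexes were pooled, so cells could be split by sex transcripts. In the 124 negative dental cells with *Xist* and no Y-linked UMI and in the 210 with a Y-linked UMI, 28 of which also held *Xist*, all 15 higher and all 10 lower genes differed at least 1.3-fold in the same direction. *Frem1* had log2 ratios of 3.17 and 3.21 in them. The genes had been picked on all cells together, so this is a description of where the values came from. *Cxcl14* had log2 ratios of -4.40 in the cells with *Xist* and -3.07 in the cells with a Y-linked UMI.

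Promoters were looked up for the 15 higher genes and for *Irx1*, *Fst*, *Enc1*, *Ednrb*, *Ddit4l* and *Lgr5*, and those of 13 of these 21 genes were read from the RefSeq table (GRCm38.p6). TAATCC, the core letters bound by bicoid-type homeodomains, was searched on both strands in windows of 300 bases. It was present in 4 of the 13 windows, those of *Frem1*, *Tgfb2*, *Ifitm1* and *Ednrb*, and in 7.06% of all 32851 promoters of the table. CTTTGAT, a core of TCF and LEF1 sites, was in none of the 13 and in 3.73% of all promoters. The windows of *Frem1* (chr4:83021053-83021352, minus strand) and *Tgfb2* (chr1:186705940-186706239, minus strand) are shown because these genes were among the 3 with the largest ratios of those seen in at least 25% of cells and their windows hold the letters. Each window starts upstream of the RefSeq gene start, and capitals mark TAATCC or its reverse complement. By the GENCODE positions, the windows of *Frem1*, *Ifitm1* and *Ednrb* lie inside the gene and not at its outermost start. For *Frem1* the GENCODE gene spans chr4:82897920-83052339.
Frem1: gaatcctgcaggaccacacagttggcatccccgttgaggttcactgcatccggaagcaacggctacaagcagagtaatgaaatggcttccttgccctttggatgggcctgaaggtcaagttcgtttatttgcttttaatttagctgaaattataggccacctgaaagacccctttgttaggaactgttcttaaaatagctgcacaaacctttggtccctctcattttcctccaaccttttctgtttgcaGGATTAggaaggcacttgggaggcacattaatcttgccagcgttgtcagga
Tgfb2: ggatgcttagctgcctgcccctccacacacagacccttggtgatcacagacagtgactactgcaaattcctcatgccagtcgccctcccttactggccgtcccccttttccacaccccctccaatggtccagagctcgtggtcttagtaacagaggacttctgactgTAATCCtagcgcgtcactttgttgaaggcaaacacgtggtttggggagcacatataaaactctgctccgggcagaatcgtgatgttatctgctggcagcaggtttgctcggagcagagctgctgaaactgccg
A match is a description of these letters and not evidence of binding.

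Lists of genes were counted by the same limits, and their counts are over the members that could be counted, to be read beside the 7.01% higher and 7.23% lower over all genes. A list's median log2 ratio and summed level are over all its members, with 5 CPM added for the median. The first list held 14 dental genes, most of them named by the study for tooth epithelium. Of these, 12 could be counted, and all 12 were higher than in the Irx1-negative cells. The median log2 ratio of the 14 was 1.79. *Tpm1*, a tropomyosin gene, was at 966 against 700 CPM. The study chose most of these genes on these same cells, so the list is not independent evidence of direction. Of 22 tooth field transcription factors, 14 could be counted, of which 6 were higher and 4 lower. The median log2 ratio of the 22 was 0.01. *Pitx1* was at 465 against 281 CPM and *Sox2* at 102 against 61.0 CPM, while *Barx1* was at 6.37 against 86.0 CPM and *Dlx3* at 63.7 against 110 CPM. *Bcl11b*, the most abundant of them, was at 473 against 479 CPM.

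Of 29 anterior, aboral genes, 21 could be counted, of which 19 were lower and none higher. The median log2 ratio of the 29 was -1.68, and their summed level was 1245 against 4603 CPM. *Meis1* and *Meis2*, homeobox genes of the aboral epithelium, were at 44.3 against 149 CPM and 420 against 928 CPM. *Gata3* was at 7.33 against 34.5 CPM. Of 23 posterior genes, only 4 could be counted, of which 3 were lower (*Tcf7l2*, *Barx2* and *Sox9*) and *Sox2* was higher. The median log2 ratio of the 23 was -1.04, and the list summed to 271 against 592 CPM.

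**Figure D4:**
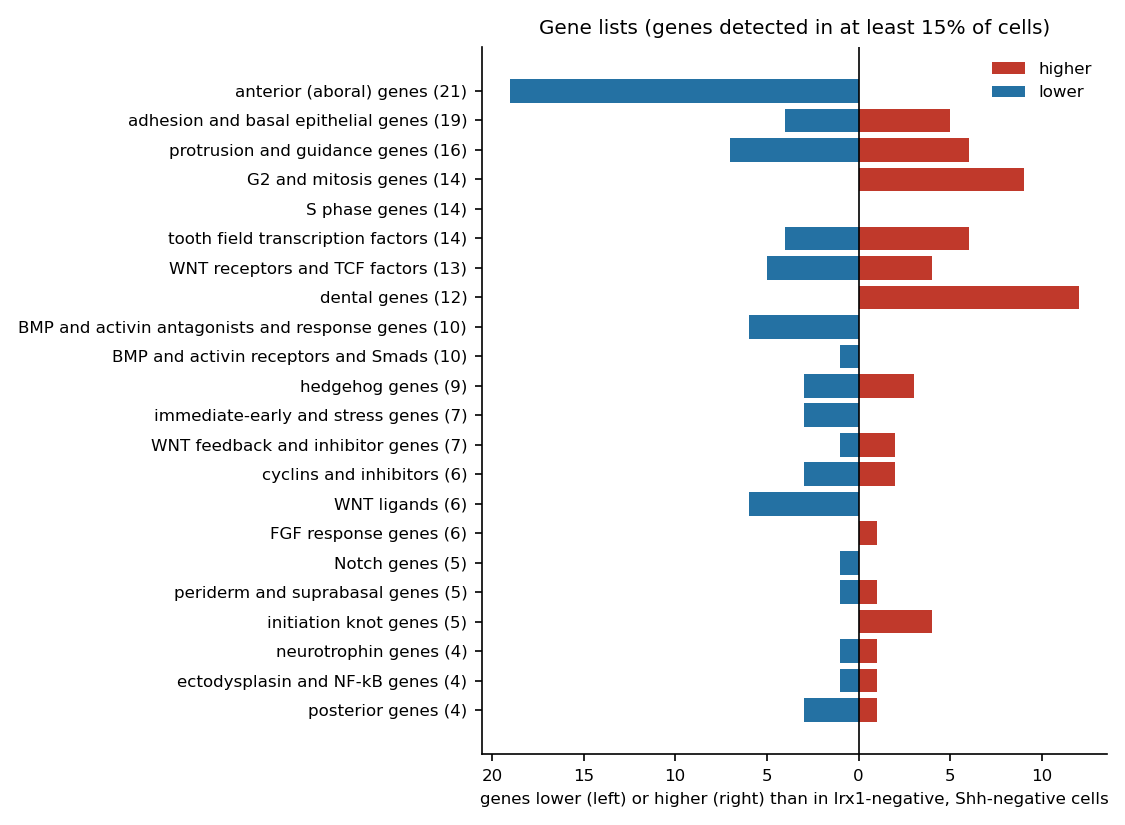
Number of genes of each list that were higher (right) or lower (left) in Isl1/Tlx1-negative dental cells than in Irx1-negative, *Shh*-negative cells, with the number of list members that could be counted in parentheses; only lists with at least 4 such members are drawn. Of 21 aboral genes that could be counted, 19 lie to the left, and all 12 dental genes that could be counted lie to the right.

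Of 11 WNT ligand genes, 6 could be counted, and all 6 were lower: *Wnt4* was at 250 against 705 CPM, *Wnt6* at 160 against 284 CPM, *Wnt7b* at 69.8 against 245 CPM and *Wnt3* at 25.5 against 104 CPM. The others were *Wnt5a* and *Wnt9b*. Among 16 receptors and TCF factors, 13 could be counted, of which 4 were higher and 5 lower. *Lef1*, a nuclear partner of beta-catenin, was at 188 against 144 CPM, and *Lgr4*, an R-spondin receptor gene, at 131 against 86.1 CPM. The feedback gene *Axin2*, a common readout of WNT signaling, was at 58.3 against 37.8 CPM, and *Sp5*, another WNT target and an initiation knot marker of the study, was at 35.7 against 2.27 CPM. Of the 16 feedback and inhibitor genes, 7 could be counted, and *Axin2* and *Sp5* were higher and *Znrf3* was lower.

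Hedgehog genes differed in both directions. The target genes *Ptch1* (170 against 103 CPM) and *Gli1* (63.7 against 24.6 CPM) were higher. The coreceptor genes *Boc*, *Cdon* and *Gas1* were lower, with *Gas1* at 40.2 against 123 CPM. In all, 9 of 10 members could be counted, of which 3 were higher and 3 lower.

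In the BMP pathway, 10 of 13 antagonists and response genes could be counted, of which 6 were lower and none higher. The response genes *Msx1* and *Msx2* were at 48.1 against 157 CPM and 17.5 against 82.9 CPM, and *Id2* at 194 against 344 CPM. The antagonist genes *Sostdc1* and *Nog* were at 133 against 393 CPM and 28.0 against 43.7 CPM. *Id3*, the most abundant of the list, was at 915 against 796 CPM. Of 9 FGF ligand genes, 2 could be counted, of which *Fgf8* was higher. *Fgfr2*, an epithelial FGF receptor gene, was at 146 against 319 CPM. Of 10 FGF response genes, 6 could be counted, of which *Spred1*, an inhibitor of the MAP kinase cascade, was higher, at 180 against 130 CPM, and none lower.

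Among 20 genes of guidance and protrusion, 16 could be counted, of which 6 were higher and 7 lower. The receptor gene *Epha4* was at 459 against 219 CPM and *Flrt2*, an adhesion gene, at 145 against 88.5 CPM. The netrin receptor gene *Unc5b* and the semaphorin gene *Sema3c* were lower, at 21.0 against 49.3 CPM and 36.3 against 64.4 CPM. Of 23 adhesion and basal epithelial genes, 19 could be counted, of which 5 were higher and 4 lower. The median log2 ratio of the 23 was 0.04. The hemidesmosome integrin gene *Itga6* was at 368 against 249 CPM. *Cdh1*, the E-cadherin gene, was at 64.4 against 109 CPM, and *Krt14* at 965 against 632 CPM, while its partner *Krt5* was at 361 against 532 CPM.

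Of 14 G2 and mitosis genes, all of which could be counted, 9 were higher, among them *Top2a* at 745 against 557 CPM and *Mki67* at 585 against 447 CPM, and of 14 S phase genes none was higher or lower. The higher count was 0 when the cells were thinned to 4100 UMIs and the rule was applied again. It was also 0 at no more than 5% mitochondrial UMIs and 0 without cells holding 3 or more suprabasal UMIs. It was 5 in cells with 5000 to 10000 UMIs. The G1 cyclin gene *Ccnd1* was at 320 against 148 CPM, *Ccnd2* at 1494 against 2100 CPM, and the inhibitor gene *Cdkn1a* (p21) at 62.8 against 33.0 CPM. Of 10 immediate-early and stress genes, 7 could be counted, of which *Fos*, *Fosb* and *Egr1* were lower and none higher. *Fos* was at 120 against 330 CPM and *Egr1* at 39.8 against 103 CPM, while *Jun*, the most abundant, was at 398 against 373 CPM.

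The direct comparison with the Isl1/Tlx1-positive dental cells asks what else differs between dental cells with and without a captured transcript of *Isl1* or *Tlx1*, of which the positive ones were deeper. Of 7027 genes, 262 were higher (3.73%) and 240 lower (3.42%) in the negative cells, and 6 and 20 of them differed 2-fold. With every cell thinned to 4100 UMIs and the rule applied again, the cells of both sets changed as well. In that comparison 71 of the 262 and 63 of the 240 were again past the limits, among 4804 genes that could be counted. After *Fgf8*, the largest higher ratio was that of *Frem1*, at 57.7 against 20.6 CPM (log2 ratio 1.48, 1.12 to 1.85). *Atf3*, a stress-response factor gene, stood at 59.3 against 26.7 CPM, *Alcam*, an adhesion gene, at 141 against 76.0 CPM, and *Krt17* at 94.97 against 51.4 CPM. *Chl1*, *Pdzrn3*, *Slitrk6*, *Lrig3* and *Arl4c* had log2 ratios between 0.83 and 0.91.

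Among the 10 genes with the lowest ratios, the T-box gene *Tbx3* was at 21.0 against 66.9 CPM (log2 ratio -1.67, -2.08 to -1.28), and *Msx1* at 48.1 against 107 CPM. *Unc5c*, a netrin receptor gene, had the lowest ratio, at 17.9 against 59.6 CPM (-1.74, -2.18 to -1.32). *Foxe1*, a forkhead gene, was at 15.3 against 41.5 CPM, *Wnt5a* at 30.9 against 69.5 CPM and *Cxcl14* at 93.4 against 207 CPM. *Amot*, *Lmo7*, *Unc5b* and *Emb* completed the 10 lowest. Of the 14 dental genes, 13 could be counted, of which 6 were higher (*Tbx1*, *Ntrk2*, *Slitrk6*, *Wasf1*, *Flrt3* and *Fgf8*) and *Ddit4l* was lower. *Ntrk2* was at 82.9 against 51.8 CPM. Of the 14 G2 and mitosis genes, none was higher or lower.

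The *Irx1*-positive cells without *Fst* or *Enc1* also had 0 UMIs of *Isl1* and *Tlx1* and differ from the described cells by the other part of the rule. Of 6484 genes, 293 were higher (4.52%) and 240 lower (3.7%) in the cells with *Fst* or *Enc1*. After thinning to 4100 UMIs with the rule applied again, so that set membership changed too, 81 of the 293 and 66 of the 240 were again past the limits. In that comparison 4746 genes could be counted. *Fgf8* was not among the 293 and 240 genes, at 82.5 against 94.3 CPM, and neither was *Ntrk2*, at 82.9 against 75.1 CPM. *Atxn1* was at 49.4 against 14.7 CPM (log2 ratio 1.75, 1.22 to 2.32), *Tgfb2* at 115 against 40.8 CPM, *Dpysl3*, a cytoskeletal gene of growing processes, at 104 against 46.9 CPM, and *Dsc3* at 274 against 156 CPM. *Tbx1*, *Inpp5f*, *Wasf1*, *Kif2c*, *Vwa2* and *Flrt3* had log2 ratios between 0.76 and 0.89.

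Genes lower in the described cells than in the *Irx1*-positive cells without *Fst* or *Enc1* included aboral ones: of the 29, 14 could be counted, of which 10 were lower and none higher. *Krt15* was at 47.5 against 154 CPM, *Tfap2b* at 53.5 against 153 CPM, and *Meis1* at 44.3 against 88.1 CPM. The diastema markers *Timp3* and *Prss23* were lower too, at 104 against 156 CPM and 102 against 140 CPM. *Ednrb* was at 11.5 against 1.63 CPM and *Ddit4l* at 18.5 against 5.71 CPM, although neither was seen in enough cells to be counted.

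**Figure D5:**
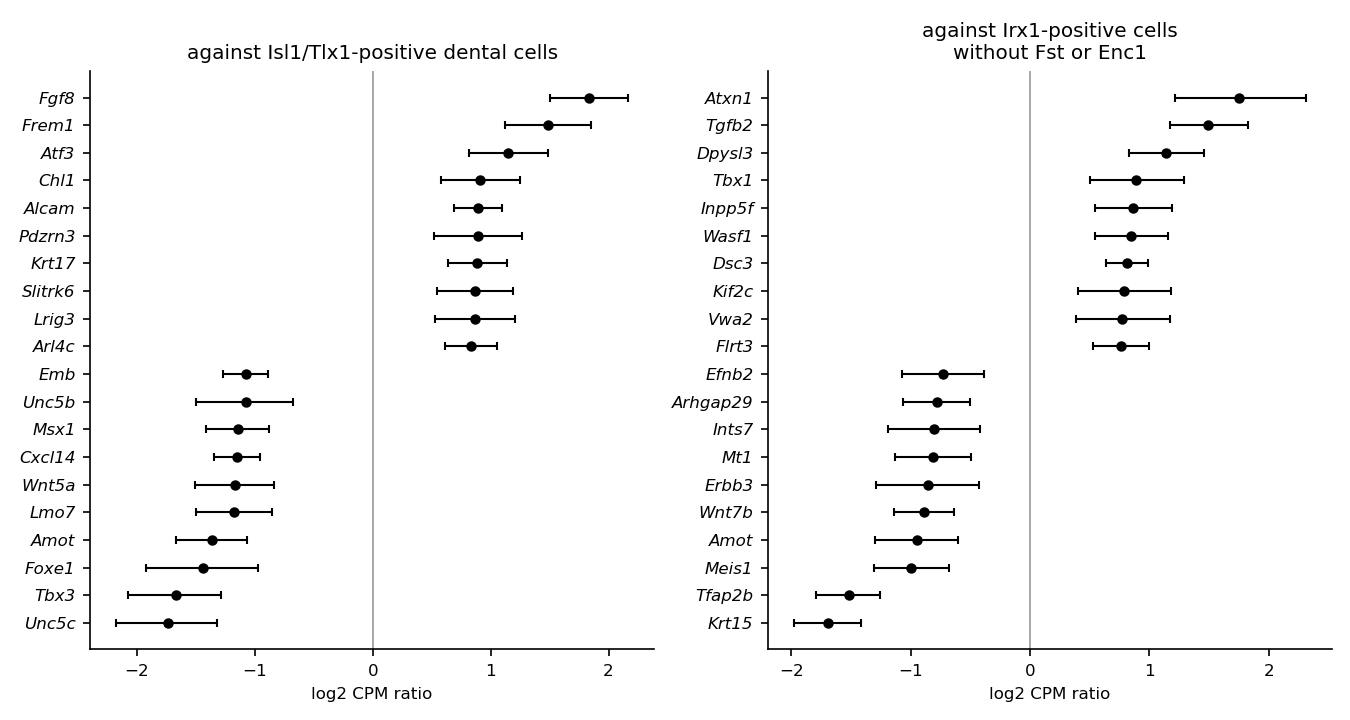
Log2 CPM ratio of Isl1/Tlx1-negative dental cells to Isl1/Tlx1-positive dental cells (left) and to *Irx1*-positive cells without *Fst* or *Enc1* (right), for the 10 genes with the highest and the 10 with the lowest ratios, with exact 95% intervals for counting error. *Fgf8* leads on the left at 1.83, and *Atxn1* on the right at 1.75.

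In the described cells *Fgf8* had 0 UMIs in 266, 1 UMI in 87 and 2 UMIs in 42, and reached 7 UMIs in 1 cell. At so few UMIs per cell, a count of 0 does not separate cells that lack the transcript from those in which it was not captured. *Fgf8* without *Ednrb* or *Ddit4l* was seen in 138 cells, *Ednrb* or *Ddit4l* without *Fgf8* in 40, both kinds in 17, and neither in 226. Among the positive dental cells the same counts were 66, 123, 10 and 304. After thinning, *Ednrb* or *Ddit4l* was seen in 6 of the 105 negative cells with *Fgf8* (5.71%) and in 11.2% of those without it. In the positive dental cells it was seen in 1 of 45 with *Fgf8* (2.22%) and in 18.3% of those without it.

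Splitting the thinned cells by *Fgf8* gave 105 cells with and 304 without a UMI of it after thinning. Their medians were 7051 and 6992 UMIs before thinning. Levels in this split are from the full counts of these cells. In the full counts the 304 cells still held 67 UMIs of *Fgf8*, at 28.7 CPM against 247 CPM in the 105. Without *Fgf8* therefore means that no UMI was left after thinning, and not that the transcript was absent. Of 6760 genes, 643 were higher (9.51%) and 607 lower (8.98%) in the cells with *Fgf8*. The genes named here were chosen after their values were seen. *Cxcl14* was at 36.4 CPM (24.2 to 52.6) with *Fgf8* and 114 CPM (100.4 to 128) without. *Bambi*, which encodes a decoy receptor for BMP and activin, was at 39.0 CPM (26.3 to 55.7) and 96.1 CPM (83.9 to 110). *Tgfb2* was at 67.6 against 130 CPM, *Slc12a2*, an ion cotransporter gene, at 367 against 645 CPM, and *Krt17* at 66.3 against 104 CPM. *Irx3* was at 62.4 CPM (46.0 to 82.7) with *Fgf8* and 34.3 CPM (27.2 to 42.7) without, and *Timp3* at 139 against 92.7 CPM. *Irx1*, *Irx2* and *Ntrk2* had log2 ratios between -0.02 and 0.15. Of the other rule genes, *Fst* was lower, at 166 CPM (139 to 198) with *Fgf8* and 232 CPM (213 to 253) without. *Enc1* had a log2 ratio of -0.07 (-0.42 to 0.27).

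Markers of other cell types were summed over the described cells. Of 8 mesenchyme markers, 5 were at 0 in the described cells, including *Prrx1*, *Twist1* and *Col3a1*, and their sum was 19.4 CPM against 9.04 CPM in the Irx1-negative cells, mostly from *Col1a2* at 15.6 CPM. All 8 blood and immune markers were at 0. Of 5 endothelial markers, 4 were at 0 and *Pecam1* was at 1.27 CPM. Melanoblast and glia markers summed to 24.9 CPM against 39.7 CPM, with *Kit* at 16.9 CPM and *Dct*, *Pmel* and *Foxd3* at 0. Neuron and muscle markers summed to 7.97 against 2.61 CPM, led by *Tubb3* at 6.06 CPM. The periderm and suprabasal genes summed to 644 CPM, against 566 CPM in the Irx1-negative and 534 CPM in the positive dental cells. *Sfn* was the most abundant, at 162 CPM. Of the described cells 55.8% held 3 or more such UMIs, against 53.0% of the Irx1-negative cells and 64.2% of the deeper positive dental cells. Without cells holding 3 or more on both sides, the log2 ratio to the positive dental cells was 1.92 (1.35 to 2.52) for *Fgf8*. For *Ddit4l* it was -0.50 (-1.22 to 0.19). Against the Irx1-negative cells, 559 genes were then higher and 599 lower, including 11 dental genes higher and 19 aboral genes and 6 WNT ligand genes lower. Of 18 initiation knot genes, 5 could be counted, of which *Sp5*, *Fam19a4*, *Cdkn1a* and *Lef1* were higher than in the Irx1-negative cells and none was lower. Their list summed to 475 CPM, against 284 CPM in the Irx1-negative, 404 CPM in the positive and 1718 CPM in the *Shh*-high dental cells, with *Lef1* the most abundant at 188 CPM. The part of the mesenchyme, melanoblast, neuron and initiation knot genes in the results was not tested.

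At E9.5 the same rule found 101 of 12744 kept cells, of which 63 had a UMI of the epithelial gene *Epcam*. These 63 cells, with a median of 16279 UMIs, were set beside 3606 *Epcam*-positive cells without *Irx1* or *Shh*, with a median of 13260 UMIs. Endodermal cells, which the study set apart from its E9.5 epithelial cells, were not removed here, so either set may hold some. Their part in the differences was not tested. *Fgf8* was at 210 CPM (182 to 240) in the 63 cells against 74.2 CPM (71.8 to 76.6) in the 3606. The interval of the log2 ratio ran from 1.29 to 1.70. *Frem1* was at 23.9 against 14.5 CPM, a log2 ratio of 0.72 (0.07 to 1.31). Of the 15 genes with the largest ratios at E12.0, 5 were at least 1.3-fold higher at E9.5, and the interval lay above 0 for *Frem1* and *Fgf8* only. *Dsc3*, *Krt17*, *Slitrk6*, *Zfp536* and *Zfp385c* had 0 UMIs in the 63 cells, but they were also near 0 in the 3606 cells, where *Krt17* was the most abundant of them at 1.25 CPM. *Ednrb* and *Lgr5* each had 1 UMI in them. Of the 10 genes with the lowest ratios at E12.0, 8 were also at least 1.3-fold lower at E9.5, with *Tfap2b* at 9.94 against 26.9 CPM and *Robo2* at 9.94 against 24.99 CPM. The interval lay below 0 for 3 of them, *Tfap2b*, *Robo2* and *Mt2*, and *Cxcl14* and *Otx1* had 1 UMI each and *Piezo2* had 3. The E9.5 library was unsorted, from other embryos, and mapped to another gene list, so the stages were compared only within each library.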

How the data were processed

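Both libraries were made on the 10x Genomics platform. The authors deposited UMI counts per gene and cell barcode, without normalization, made with Cell Ranger against the mouse genome. The submitters' processing notes name Cell Ranger 2.0.0, while the headers of the deposited matrices name 3.1.0 (E12.0) and 6.1.2 (E9.5). The E12.0 matrix held 11663 barcodes and 78911671 UMIs, the E9.5 matrix 14293 barcodes and 208540526 UMIs.

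Cells with 200 to 5500 genes and at most 10% mitochondrial UMIs were kept, after the limits of the study. Counts were summed over each set and scaled to CPM. Intervals are exact at 95% (Poisson for a level, conditional binomial for a ratio, Clopper-Pearson for a share) and cover counting error only. A set with 0 UMIs was given 3 counts for a ratio, and no ratio was formed where the other side was also at or below that. With 1 library per stage there was no test. Doublets were called with Scrublet in scanpy 1.11.5 and kept. Other steps used Python 3.11.15, numpy 2.4.6, scipy 1.17.1, pandas 2.3.3 and matplotlib 3.10.9, with a seed of 1 for thinning and doublets. Positions are from GENCODE on GRCm38.

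The genes named are those of the rule, dental and diastema genes, members of gene lists, and the genes with the largest ratios in each comparison among those seen in at least 25% of cells of the higher side, without mitochondrial and sex-linked genes. The members and the lists were chosen with earlier results of these data known. In a simulation of the comparison with Irx1-negative cells, 200 of 2000 genes were changed 2-fold. Of these, 200 were recovered in the right direction, and 12 unchanged genes passed the size limits. The simulated counts varied by Poisson error only, without differences between cells. They were drawn from the more abundant genes and used only part of the Irx1-negative cells. The comparisons between smaller sets were not simulated, so the simulation gives no error rate for the counts of genes reported. Clustering, RNA velocity and regulon analysis were not used here. Results for some genes are not reported here.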

Additional observations from a re-analysis of the deposited data

How the results depend on the processing

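Counts of genes past the size limits depended on the limits and on the number of cells. Each group of 6 counts below runs in the order higher and lower than in Irx1-negative cells, than in positive dental cells, and than in *Irx1*-positive cells without *Fst* or *Enc1*, with 457, 471, 262, 240, 293 and 240 as reported. A fold of 2 gave 78, 98, 6, 20, 11 and 5. A detection limit of 25% gave 298, 256, 123, 120, 141 and 83. No detection limit with at least 10 UMIs gave 2303, 3748, 1411, 1334, 1321 and 1398. At most 5% mitochondrial UMIs gave 693, 716, 709, 681, 1007 and 932. Requiring 2 UMIs of *Irx1* and of *Fst* and *Enc1* gave 897, 718, 741, 718, 718 and 571. Cells with *Xist* and no Y-linked UMI gave 715, 709, 778, 767, 823 and 763. Cells of at least 8000 UMIs, an alternative chosen after seeing the data, gave 751, 795, 724, 628, 945 and 847. Cells with a Y-linked UMI moved the last 4 counts to 453, 487, 636 and 507, and leaving out cells with 3 or more suprabasal UMIs moved them to 571, 613, 508 and 592. Cells of 5000 to 10000 UMIs gave 482 genes higher than in positive dental cells and 369 lower than in *Irx1*-positive cells without *Fst* or *Enc1*. Thinning with the rule applied again gave 401 higher than in positive dental cells. These alternatives hold fewer cells or other limits, and all counts past 1.3-fold include counting error.

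The number of cells was 132 with the stricter rule and 121 at most 5% mitochondrial UMIs, against 421. The negative share of dental cells was 61.9% after thinning with the rule applied again. The log2 ratio of *Fgf8*, 1.83 as reported, was 2.19 with the stricter rule, 1.35 at most 5% mitochondrial UMIs and 2.56 in cells of 5000 to 10000 UMIs. That of *Ddit4l* was -1.15 with the stricter rule. That of *Ednrb* was -1.52 in cells of at least 8000 UMIs and turned to 0.063 without cells holding 3 or more suprabasal UMIs, and the cause was not tested. The *Ednrb* ratio rests on 36 and 86 UMIs. Its interval also included 0 at most 5% mitochondrial UMIs (-1.06 to 0.65) and in cells of 5000 to 10000 UMIs (-1.22 to 0.12). The same held in cells with *Xist* and no Y-linked UMI (-1.43 to 0.64) and in cells with a Y-linked UMI (-1.48 to 0.22). After thinning with the rule applied again the *Ednrb* interval was -1.94 to 0.18. The direction of the *Fgf8* and *Ddit4l* ratios held under every alternative run, but the interval of *Ddit4l* included 0 at most 5% mitochondrial UMIs (-1.55 to 0.025), without cells holding 3 or more suprabasal UMIs (-1.22 to 0.19) and in cells with a Y-linked UMI (-1.13 to 0.15). No paired analysis was possible because each stage has 1 library. The *Isl1* and *Tlx1* criterion depends on depth, since a UMI of either was seen more often in deeper cells.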
